A study of Saccharomyces kudriavzevii and Saccharomyces cerevisiae and Kluyveromyces marxianus with 12 samples.

Results

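The genes described here make, supply and break down trehalose in *Saccharomyces cerevisiae*. They are 9 of the 6017 genes counted in this species, chosen by systematic name: TPS1 (YBR126C), TPS2 (YDR074W), TPS3 (YMR261C), TSL1 (YML100W), NTH1 (YDR001C), NTH2 (YBR001C), ATH1 (YPR026W), PGM2 (YMR105C) and UGP1 (YKL035W). The study measured poly(A) RNA in *S. cerevisiae*, *S. kudriavzevii* and *Kluyveromyces marxianus* with and without a short heat shock, and the latter species are not analysed here. In *S. cerevisiae*, 2 control libraries came from cells kept at the growth temperature of 33 °C and 2 heat shock libraries from cells moved to 40 °C, both for 8 minutes. All 4 cultures were the haploid laboratory strain BY4742 in log phase in rich medium with glucose. The replicates are labelled as biological, with nothing further on their cultures.

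Trehalose is a disaccharide of glucose that yeast accumulates under heat and other stresses, and it is known to protect proteins and membranes. Glucose 6-phosphate is turned into glucose 1-phosphate by phosphoglucomutase (Pgm2) and then into UDP-glucose by UDP-glucose pyrophosphorylase (Ugp1). Tps1 joins UDP-glucose and glucose 6-phosphate into trehalose 6-phosphate, and Tps2 removes the phosphate. Both work in a complex with Tps3 and Tsl1, a pair of related regulatory subunits. Trehalose is split into glucose by the neutral trehalases Nth1 and Nth2 in the cytosol and by the acid trehalase Ath1.

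The libraries held between 18911098 and 23476002 counts on genes, while 5.91% to 6.60% of all counts tallied were assigned to no gene, for any reason. The strain label was checked on its auxotrophic markers: URA3, LEU2 and LYS2 had 0 counts in all 4 libraries, whereas HIS3, which the his3 allele of this strain removes only in part, had between 1633 and 3494. TPM scales reads by gene length and by the library's total. Genes of mating type alpha, that of BY4742, were expressed in the controls and fell after heat shock, all 3 of 3 listed (MF(ALPHA)1 from 2603 and 2694 TPM to 173 and 138 TPM, STE3 from 157 and 168 TPM to 24.5 and 19.9 TPM). The 4 listed a-cell genes rose, from between 2.53 and 12.4 TPM in the controls to between 5.09 and 25.3 TPM after heat shock. MFA1 and MFA2 among them rested on between 25 and 75 counts per library. Of all 5786 genes tested, 33.7% were called higher and 32.7% lower (edgeR, adjusted p under 0.05). The part of these mating-type genes in the other results was not tested. The Hsp70 gene SSA4 rose from 27.5 and 25.05 TPM to 3752 and 4537 TPM, in the direction of the heat shock labels. Each library reports shares of the mRNA pool, so a change in the amount of mRNA per cell cannot be seen.

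All 9 trehalose genes lie on nuclear chromosomes as a single uninterrupted coding sequence, and 0 of them overlap another annotated gene in R64. None of their 50-base windows was found a second time in the genome (0 windows for each gene), so reads of the paralogs TPS3 and TSL1, or NTH1 and NTH2, were separable at that length. The sequence upstream of the start codon is shown for the pair that rose most, PGM2 and TSL1, and for the pair that rose least, NTH2 and TPS3. Motifs were searched on both strands for 2 factors: the core of the stress response element bound by Msn2 and Msn4 (AGGGG, or CCCCT on the other strand), and paired units of the heat shock element bound by Hsf1 (GAANNTTC or TTCNNGAA). Each line holds 250 bases before and 50 bases from the start codon on the coding strand, from R64 of RefSeq, with matches to either motif in capitals.
PGM2, chrXIII:477557-477856, minus strand: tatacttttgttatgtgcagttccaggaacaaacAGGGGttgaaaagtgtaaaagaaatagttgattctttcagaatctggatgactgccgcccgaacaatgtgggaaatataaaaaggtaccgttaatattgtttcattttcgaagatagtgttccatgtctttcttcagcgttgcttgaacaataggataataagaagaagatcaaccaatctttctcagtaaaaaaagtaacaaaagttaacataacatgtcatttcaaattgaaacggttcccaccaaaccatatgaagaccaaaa
TSL1, chrXIII:70374-70673, plus strand: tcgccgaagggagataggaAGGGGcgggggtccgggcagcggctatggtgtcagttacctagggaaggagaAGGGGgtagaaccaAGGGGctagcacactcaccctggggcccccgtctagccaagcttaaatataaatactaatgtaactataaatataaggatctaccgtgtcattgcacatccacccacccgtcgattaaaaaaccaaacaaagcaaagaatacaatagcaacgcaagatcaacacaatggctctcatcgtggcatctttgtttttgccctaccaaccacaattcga
NTH2, chrII:241234-241533, minus strand: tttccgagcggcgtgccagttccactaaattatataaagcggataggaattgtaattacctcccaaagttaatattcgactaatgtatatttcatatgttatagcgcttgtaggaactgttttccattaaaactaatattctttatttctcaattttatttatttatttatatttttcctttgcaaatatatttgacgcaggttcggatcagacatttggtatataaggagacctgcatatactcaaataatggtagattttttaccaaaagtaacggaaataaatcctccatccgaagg
TPS3, chrXIII:793320-793619, minus strand: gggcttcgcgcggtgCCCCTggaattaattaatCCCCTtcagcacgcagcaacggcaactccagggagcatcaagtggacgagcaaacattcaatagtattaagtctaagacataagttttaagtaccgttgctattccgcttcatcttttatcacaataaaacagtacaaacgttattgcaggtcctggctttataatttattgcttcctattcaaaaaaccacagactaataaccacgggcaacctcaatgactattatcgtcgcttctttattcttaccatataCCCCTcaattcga
In this window TSL1 had 3 matches to the stress response element core, at 231, 179 and 165 bases before the start codon, and PGM2 had 1, at 216 bases. TPS3 also had 3, but 1 of them was inside its coding sequence, and NTH2 had none of either motif. Here 5 of the 9 genes had at least 1 core, against 21.6% of 5994 promoters of the same length, and 2 of 9, TPS1 and ATH1, had a paired heat shock unit, against 22.6%.

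**Figure D1:**
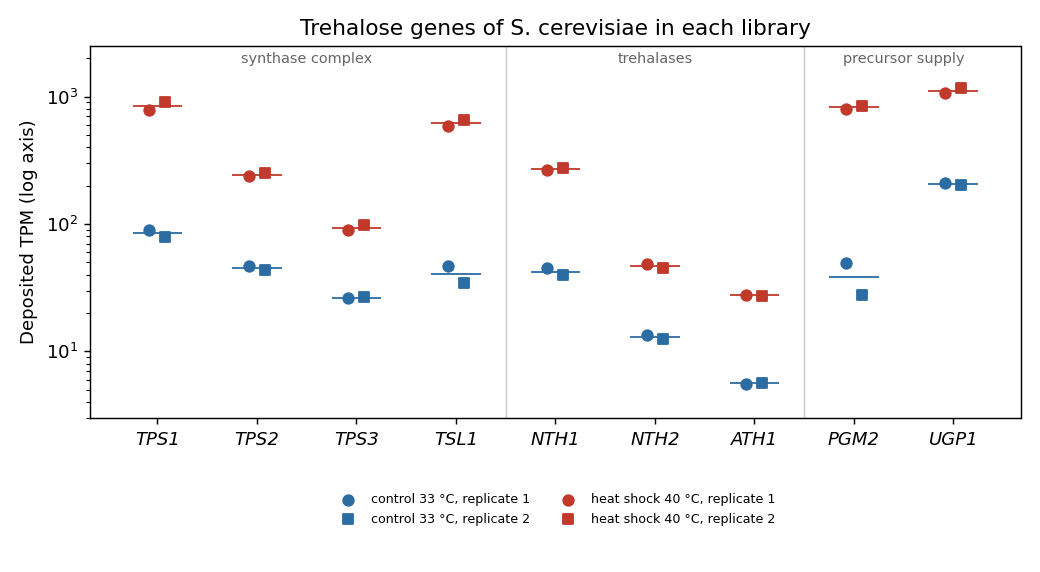
Deposited TPM (log axis) of the 9 trehalose genes of S. cerevisiae in each of the 4 libraries. Points are libraries and horizontal lines the mean of the 2 libraries of a condition. Both heat shock libraries lie above both control libraries for every gene, and UGP1 is the highest and ATH1 the lowest gene in both conditions.

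All 9 trehalose genes rose at 40 °C, those for breakdown as well as those for synthesis. Every one passed an adjusted p of 0.05 (edgeR quasi-likelihood fit, Benjamini-Hochberg), and of the 5786 genes in that fit 33.7% were called higher and 32.7% lower. Their median log2 fold change was 2.18, against 0.03 over all genes tested, and they ranged from 1.58 for TPS3 to 4.16 for PGM2. The libraries of the conditions did not overlap in CPM (counts scaled by library size after TMM, edgeR's normalization) for any of the 9, which held in the same direction for 44.1% of all genes tested. In the order of rises over all 5786 genes, PGM2 was at position 26, TSL1 at 45, TPS1 at 72 and TPS3, the last of the 9, at 345. Summed over the 9 genes, TPM went from 533 and 471 in the controls to 3910 and 4266 after heat shock, an increase of 8.14-fold between the means. In percent of all TPM, this was 0.0533% and 0.0471% before and 0.391% and 0.427% after. On TPM the median of all genes was also 0.26 higher after heat shock on the log2 scale (pseudocount 1), a shift that the 8.14-fold includes.

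TPS1, the trehalose 6-phosphate synthase, was at 89.7 and 79.3 TPM in the control libraries and at 788 and 909 TPM after heat shock, replicate 1 first. Its log2 fold change was 3.07 (standard error 0.143, edgeR, Benjamini-Hochberg adjusted p = 6.02e-06), an 8.41-fold rise. TPS1 was the most abundant gene of the complex in both conditions.

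TSL1, the larger of the 2 regulatory subunits, was at 46.6 and 34.4 TPM in the controls and at 583 and 660 TPM after heat shock. It rose 12.8-fold, the most of the complex (log2 fold change 3.68, standard error 0.199, edgeR, Benjamini-Hochberg adjusted p = 9.90e-06). Its paralog TPS3 was at 26.3 and 26.5 TPM in the controls and at 89.4 and 98.1 TPM after heat shock. TPS3 thus rose 2.98-fold, the least of all 9 genes (log2 fold change 1.58, standard error 0.0953, edgeR, Benjamini-Hochberg adjusted p = 1.55e-05), and the groups were still well apart.

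TPS2, the phosphatase that completes the synthesis, was at 47.2 and 43.8 TPM in the controls and at 236 and 250 TPM after heat shock. Its rise of 4.48-fold (log2 fold change 2.16, standard error 0.110, edgeR, Benjamini-Hochberg adjusted p = 7.84e-06) lay between those of TPS3 and TPS1. The make-up of the complex's transcripts therefore shifted. TSL1 took 22.2% and 18.7% of the summed TPM of the 4 genes in the controls and 34.4% in both heat shock libraries, while TPS3 went from 12.5% and 14.4% to 5.27% and 5.12%. TPS2 went from 22.5% and 23.8% of the sum to 13.9% and 13.0%, and TPS1 kept the largest share, 42.8% and 43.1% before and 46.4% and 47.4% after.

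NTH1, the main neutral trehalase, was at 45.0 and 39.6 TPM in the controls and at 267 and 273 TPM after heat shock. It rose 5.35-fold (log2 fold change 2.42, standard error 0.120, edgeR, Benjamini-Hochberg adjusted p = 7.25e-06), a value above those of TPS2 and TPS3 in the synthase complex, though the difference between genes was not tested. NTH2, its paralog, was at 13.5 and 12.5 TPM before and 48.3 and 45.3 TPM after, a 3.01-fold rise (log2 fold change 1.59, standard error 0.107, edgeR, Benjamini-Hochberg adjusted p = 2.58e-05). ATH1, the acid trehalase, is known to act on trehalose at the cell surface and in the vacuole. It had the lowest level of the 9 genes, 5.58 and 5.66 TPM in the controls, yet these values rested on 559 and 656 counts. After heat shock it was at 27.8 and 27.1 TPM, a 4.09-fold rise (log2 fold change 2.03, standard error 0.104, edgeR, Benjamini-Hochberg adjusted p = 8.19e-06). In CPM the replicates of ATH1 were the closest of the 9 genes in both conditions.

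PGM2, the major phosphoglucomutase, was at 49.3 and 27.5 TPM in the controls and at 802 and 841 TPM after heat shock. It rose 17.8-fold, the most of the 9 genes (log2 fold change 4.16, standard error 0.301, edgeR, Benjamini-Hochberg adjusted p = 3.50e-05). Its 2 controls also differed most, and leaving out control replicate 1 gave a log2 fold change of 4.66, leaving out replicate 2 one of 3.77. UGP1, whose product UDP-glucose also feeds glycogen and cell wall glucan, was at 210 and 202 TPM in the controls and at 1068 and 1163 TPM after heat shock. Its rise was 4.54-fold (log2 fold change 2.18, standard error 0.116, edgeR, Benjamini-Hochberg adjusted p = 9.21e-06), and it stayed the most abundant of the 9 genes.

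**Figure D2:**
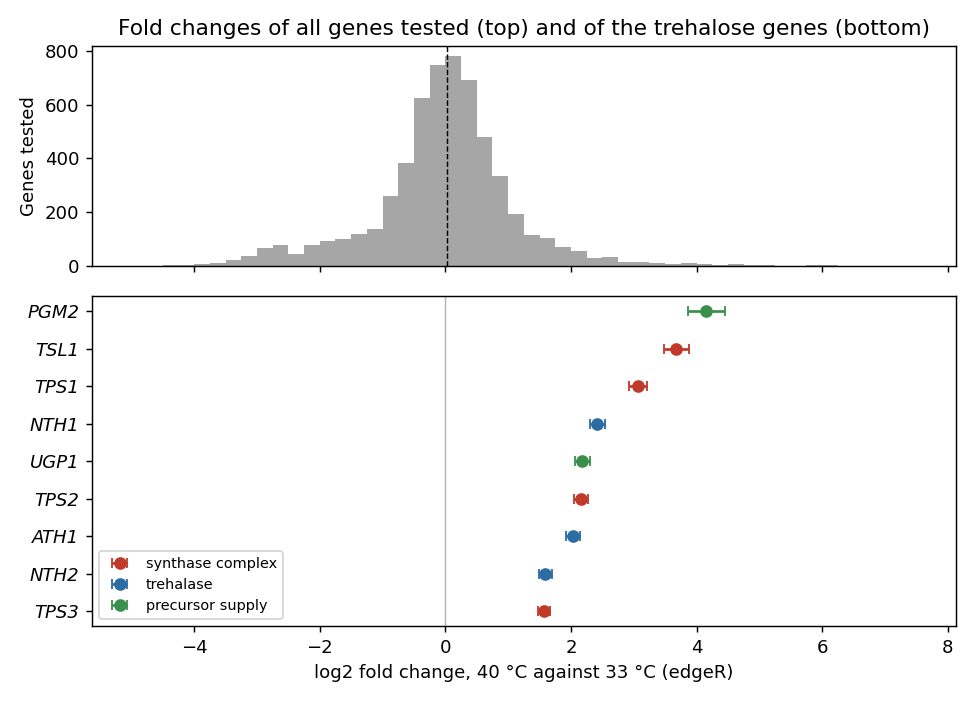
Log2 fold change at 40 °C against 33 °C from edgeR, as a histogram over the 5786 genes tested with the median dashed (top) and for each trehalose gene with its standard error (bottom), coloured by role. The 9 genes lie between 1.58 and 4.16, to the right of the median of 0.03, and the roles are interleaved.

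The order of the genes by TPM was compared within each condition. In the controls, UGP1 came first and TPS1 next, and ATH1, NTH2 and TPS3 were the lowest, each apart from its neighbours in both libraries. For TPS3, at 26.3 and 26.5 TPM, the gap to PGM2 was narrow, since the lower control of PGM2 was at 27.5 TPM. TPS2, NTH1, TSL1 and PGM2 lay between 27.5 and 49.3 TPM and each overlapped its neighbour in that order. After heat shock, PGM2 and TSL1 had moved above NTH1 and TPS2, and TPS1 and PGM2, which were apart in the controls, were then the only neighbours to overlap. NTH1, at 267 and 273 TPM, was then above TPS2, at 236 and 250 TPM, in both libraries.

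Ratios between members within a library are free of library scaling. TSL1 over TPS3 was 1.78 and 1.30 in the controls and 6.52 and 6.72 after heat shock. TPS1 over TPS2 went from 1.90 and 1.81 to 3.33 and 3.64, and NTH1 over NTH2 from 3.33 and 3.16 to 5.53 and 6.02. The summed synthase complex over the summed trehalases went from 3.27 and 3.19 to 4.94 and 5.55, a change of 1.62-fold between means of 3.23 ± 0.0624 and 5.25 ± 0.430 (SD, n = 2). None of these ratios overlapped between conditions. With 2 libraries against 2, an exact two-sided permutation test cannot give a p below 0.333, so no p is given.

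**Figure D3:**
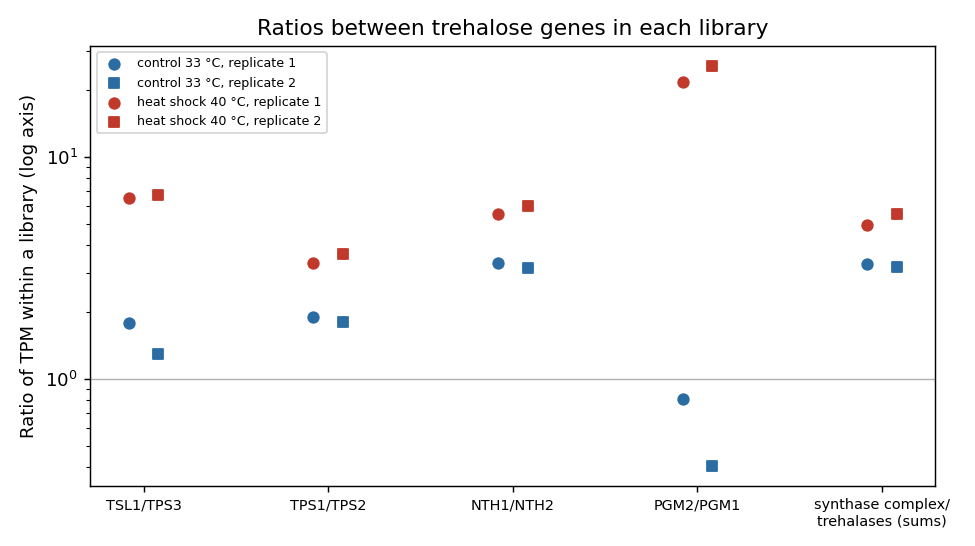
Ratio of TPM between trehalose genes within each library (log axis), with points for the 4 libraries. PGM1 is the second phosphoglucomutase gene and the last column is the sum of TPS1, TPS2, TPS3 and TSL1 over the sum of NTH1, NTH2 and ATH1. Heat shock libraries lie above control libraries in all 5 ratios, and PGM2 over PGM1 crosses 1.

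The isozyme PGM1 moved against PGM2. It was at 60.9 and 67.8 TPM in the controls and at 36.8 and 32.8 TPM after heat shock, and it fell by 1.14 on the log2 scale (standard error 0.0909, edgeR, Benjamini-Hochberg adjusted p = 5.40e-05). PGM2 over PGM1 was 0.809 and 0.406 in the controls and 21.8 and 25.6 after heat shock. The change between the means was 5.29 on the log2 scale. It was 5.98 with replicate 1 of both conditions left out and 4.75 with replicate 2 left out. Of the 6 listed genes for glucose phosphorylation and phosphoglucomutases, 4 rose and 2 fell, against 33.7% higher and 32.7% lower of all genes tested. Among the enzymes that phosphorylate glucose, GLK1 (log2 fold change 3.65), HXK1 (3.25) and EMI2 (2.35) rose, whereas HXK2, the main hexokinase of growth on glucose, fell by 0.87 on the log2 scale from 531 and 525 TPM to 332 and 355 TPM. The sixth gene, PRM15 (also named PGM3), rose by 0.77 on the log2 scale.

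Glycogen is the other glucose store made from UDP-glucose, and 7 of its 8 listed genes rose, with a median log2 fold change of 2.07. Among all genes tested, 33.7% were higher and 32.7% lower. The largest rise was that of GPH1, glycogen phosphorylase, from 16.8 and 10.2 TPM to 245 TPM in both heat shock libraries (log2 fold change 3.92). GDB1, the debranching enzyme, went from 4.42 and 4.10 TPM to 39.4 and 41.8 TPM, and GSY2, the main glycogen synthase, rose by 2.63 on the log2 scale, so that breakdown and synthesis genes rose together here as well. GLG2, an initiator of glycogen synthesis, did not pass the test (log2 fold change 0.16, edgeR, Benjamini-Hochberg adjusted p = 0.254). The 7 other listed users of UDP-glucose were mixed, with a median of 0.26: 3 rose, 2 fell and 2 did not pass, where 33.7% of all genes tested were higher and 32.7% lower. FKS1, a glucan synthase of the cell wall, fell by 0.44 on the log2 scale and ALG5, which makes a lipid-linked glucose donor for glycosylation, by 0.94, while GAL7, of galactose use, rose by 1.93 on the log2 scale from low levels (4.98 and 3.56 TPM to 20.7 and 18.1 TPM). The call of FKS1 was lost without control replicate 2 and without heat shock replicate 1 (edgeR, Benjamini-Hochberg adjusted p = 0.125 and 0.203), which leaves 1 of these genes lower. ATG26, a sterol glucosyltransferase (log2 fold change 0.31), lost its call without heat shock replicate 1 or 2 (adjusted p = 0.145 and 0.186).

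Of 11 listed regulators, 8 rose, 1 fell and 2 did not pass, where 33.7% of all genes tested were higher and 32.7% lower. The genes for Msn2 and Msn4, transcription factors known to activate trehalose genes, had log2 fold changes of 0.18 and 0.22 (edgeR, Benjamini-Hochberg adjusted p = 0.0920 and 0.0619), and HSF1 rose by 0.89 on the log2 scale. Protein kinase A is known to restrain Msn2 and Msn4 and to phosphorylate Nth1, which the 14-3-3 proteins Bmh1 and Bmh2 then bind and activate. TPK2, which codes for a catalytic subunit, rose by 1.05 on the log2 scale. TPK3, which codes for another, fell by 0.89 on the log2 scale. BCY1, the inhibitory subunit, rose by 1.19 on the log2 scale, from 63.7 and 62.8 TPM to 163 and 181 TPM. BMH1 rose by 0.73 and BMH2 by 0.46 on the log2 scale, the latter with an adjusted p of 0.0599 without heat shock replicate 2, and MSN2 passed without control replicate 2 (adjusted p = 0.0391, both edgeR). The largest rise among the regulators was that of DCS2, from 21.8 and 12.3 TPM to 284 and 274 TPM (log2 fold change 3.77), above its paralog DCS1 (1.83), the scavenger decapping enzyme. RIM15, a kinase of nutrient and stress signalling, rose by 1.19 on the log2 scale.

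Over the longer window of 500 bases before the start codon, 8 of the 9 trehalose genes had at least 1 stress response element core and 7 had 2 or more, against 34.1% and 8.13% of 5993 promoters. TPS1 had 6 cores, PGM2 and TSL1 had 5 each, TPS2 and UGP1 had 4, NTH1 had 3, TPS3 had 2 and ATH1 had 1, while NTH2 had none. All 4 cores of UGP1 and its paired heat shock unit lay beyond the 169 bases that separate UGP1 from AIM26, its upstream neighbour. The TSL1 cores at 378 and 326 bases lay beyond the 312 bases to YML100W-A. The TPS1 core at 472 bases lay beyond the 457 bases to MEO1. Such matches were counted here, as they were for all promoters. With them counted, the 3 genes with the most cores were also the 3 with the largest log2 fold changes. Without them this does not hold. TSL1 would keep its 3 cores at 231, 179 and 165 bases, fewer than the 4 of TPS2, whose upstream neighbour is 944 bases away. Across the 9 genes the number of cores, such matches included, and the log2 fold change had a Spearman correlation of 0.84 (Pearson 0.77) in this window. It was 0.37 (Pearson 0.36) in the window of 300 bases. These values describe 9 genes measured in the same 4 libraries, and the correlation without such matches was not computed. The 5 cores of PGM2 are shown with 10 bases on either side, on the coding strand and with the core in capitals, since this gene rose most.
PGM2, 406 bases before the start codon, chrXIII:477998-478022: cacgctgctgCCCCTgagcttgcga
PGM2, 359 bases before, chrXIII:477951-477975: tgttctttctAGGGGggagaggccc
PGM2, 305 bases before, chrXIII:477897-477921: gctcacgaaaAGGGGtggtgtcgcg
PGM2, 259 bases before, chrXIII:477851-477875: cttacgtgaaAGGGGacgttatact
PGM2, 216 bases before, chrXIII:477808-477832: aggaacaaacAGGGGttgaaaagtg
Paired heat shock units were found upstream of 5 of the 9 genes (TPS1, TSL1, NTH2, ATH1 and UGP1), against 35.2% of promoters. In TSL1, 2 such pairs overlapped at 354 and 349 bases before the start codon and formed the single run of 3 alternating units among the 9 genes, which 1.49% of promoters of that length hold. All paired units of TSL1, this run included, lay beyond the 312 bases that separate TSL1 from YML100W-A, its upstream neighbour. In UGP1 a pair shared its first base with the last base of a stress response element core. The TSL1 run is shown with its 3 units in capitals.
TSL1, 354 bases before the start codon, chrXIII:70260-70292, plus strand: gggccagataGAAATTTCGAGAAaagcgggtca

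**Figure D4:**
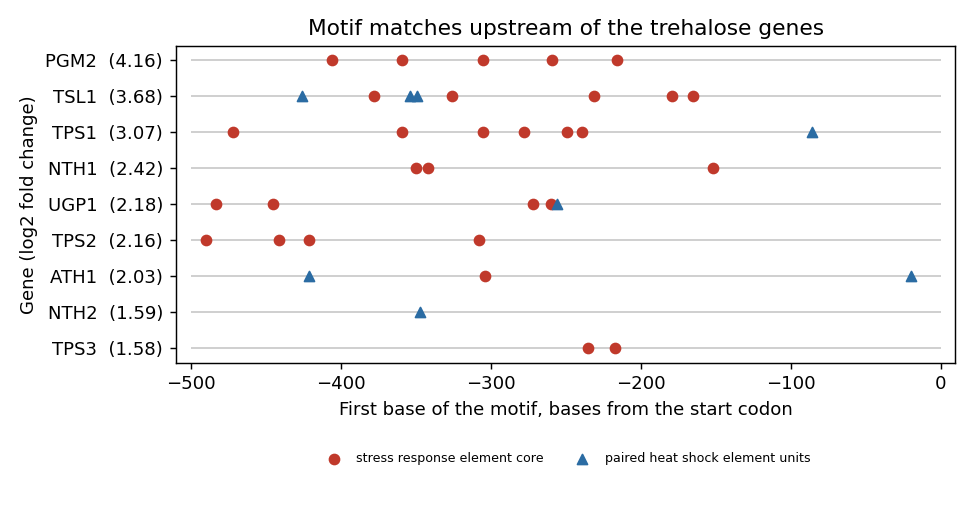
Position of motif matches on either strand in the 500 bases before the start codon of each trehalose gene, ordered by log2 fold change, which stands beside the name. The 3 genes at the top, PGM2, TSL1 and TPS1, have 5, 5 and 6 stress response element cores, and NTH2 has none. Matches beyond the near edge of the next upstream gene are included, and without them TSL1 has fewer cores than TPS2.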

How the data were processed

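The members and gene lists were chosen with earlier results of these data known. Per the labels and the study's methods, the authors trimmed reads with Trim Galore 0.6.10, aligned them with STAR 2.7.10b to R64 and counted them on coding sequences with HTSeq 2.0.2, without strand. The deposited counts are whole numbers per gene from paired-end sequencing, not normalized. The authors divided them by gene length into TPM, which they deposited for all libraries stacked in 1 column and which was therefore read as a score. The rows that tally counts assigned to no gene, between 5.91% and 6.60% of all counts tallied in a library, stayed out of library sizes.

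The 4 *S. cerevisiae* libraries were fitted in R 4.3.3 with edgeR 4.0.16 (TMM, filterByExpr, quasi-likelihood test, no covariates), and p-values were adjusted by Benjamini-Hochberg at 0.05. The standard error is the size of the log2 fold change divided by the square root of F. DESeq2 1.42.0, other scalings, no filter, a replicate block and leaving out each library were tried. On simulated counts (200 of 5786 genes changed, as many up as down, with the same dispersion for every gene), the test recovered 99% of 2-fold and 100% of 4-fold changes. In the data, 33.7% of genes were called higher and 32.7% lower and the dispersion can differ by gene, so these rates need not hold there.

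Libraries held between 18911098 and 23476002 counts, and the lowest count of a member was 559, so the precision is set mainly by having 2 libraries per condition. Promoter windows and motifs came from the R64 genome and annotation of RefSeq, which is the build of the study. The planned comparison of protein sequences was not made, and 1 gene of the planned list of regulators is not reported here. Named genes are the 9 members, the listed genes and the nearest genes in pattern to the members with the largest and smallest fold change. Upstream neighbours were added later. Plots were drawn with matplotlib 3.10.9 in Python 3.11.15, after tables made with pandas 2.3.3 and SciPy 1.17.1.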

Additional observations from a re-analysis of the deposited data

How the results depend on the processing

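All 9 trehalose genes stayed higher at an adjusted p under 0.05 in each of the 9 alternative fits (edgeR or DESeq2, Benjamini-Hochberg). With each library left out in turn, where the lone library of a condition is assumed to vary like the other, the highest adjusted p of any member was 0.000933, for NTH2. All genes called then numbered between 1379 and 1961 higher and between 1426 and 2007 lower, and the listed UDP-glucose users called lower between 1 and 2 (1 without control replicate 2 and 1 without heat shock replicate 1). With the replicate number as a block, 2210 genes were higher and 2092 lower, no call of a member changed, and GSC2 (adjusted p = 0.0245) and MSN4 (0.0302) were called. ATG26 lost its call with DESeq2 size factors (0.0622) and with DESeq2 (0.0633). Same-numbered libraries deviated together (Pearson correlation 0.57 over 5786 genes), but the labels give the numbers no shared origin and there are 2 pairs, so the numbers were not used as pairs in the main results. On TPM, the median of all genes was 0.26 higher than 0 on the log2 scale with a pseudocount of 1, and members shifted upward as well. The shift was larger than the spread of the ratios between libraries for all members (TPS1 from 3.07 to 3.31) except PGM2 (to 4.38) and TSL1 (to 3.91). In 500 bases before the start codon, 8 members had a stress response element core and 5 a paired heat shock unit, with matches beyond the edge of the next upstream gene counted. With 2 libraries per condition, small differences between members are not resolved.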

Other observations

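In the control libraries all 9 trehalose genes were higher in replicate 1 than in replicate 2, by 1.04-fold for ATH1 and TPS3 up to 1.43-fold for TSL1 and 1.88-fold for PGM2 in CPM. Over all genes tested, 50.7% were higher in control replicate 1 and the median ratio was 1.00. In the heat shock libraries 2 of the 9, NTH2 and ATH1, were higher in replicate 1. Some other genes with large rises differed between the controls in the same direction, such as HXK1 (164 and 82.1 TPM), GPH1 (16.8 and 10.2 TPM) and DCS2 (21.8 and 12.3 TPM). They were named after their values were seen, and how many genes with large rises did so was not counted. The part of culture or handling in this difference was not tested.

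The genes whose 4 log2 CPM values, centred on the controls, lay nearest to those of PGM2 were MSC1 (Euclidean distance 0.154), RTN2 (0.3498) and TFS1 (0.363), with log2 fold changes of 4.11, 4.09 and 4.39. The nearest to TPS3 were SOL1 (0.0564), HRK1 (0.0762) and IML2 (0.0895), each with a log2 fold change of 1.61.

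The protein-coding genes next upstream of the 9 members, added after the data were seen, did not move as one. YML100W-A, 312 bases upstream of TSL1 and on the same strand, rose by 2.62 on the log2 scale (standard error 0.299, edgeR, Benjamini-Hochberg adjusted p = 0.000289). YMR262W, divergent from TPS3 across 356 bases, rose by 1.04 on the log2 scale and MEO1, divergent from TPS1 across 457 bases, by 0.50. YRB1, divergent from NTH1 across 569 bases, fell by 0.66 on the log2 scale, and RER2, upstream of NTH2, fell by 0.48. SNF11, CCL1, YMR105W-A and AIM26, upstream of TPS2, ATH1, PGM2 and UGP1, did not pass the test (log2 fold changes between -0.85 and 0.18). Strand was not used in counting, so reads that run on from a neighbour cannot be told apart from a gene's own.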
